A study of Homo sapiens with 11 samples.

Results

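The genes described here are the cytosolic 70-kDa heat shock proteins (HSP70) and 2 of their co-chaperones: HSPA1A, HSPA1B, HSPA1L, HSPA2, HSPA4, HSPA4L, HSPA6, HSPA8, DNAJB1 and BAG3. They were chosen by name, and all 10 were found among 38021 genes. All 10 passed the filter on low counts that left 17793 genes for testing. RNA-seq gave expected counts per gene in HEK293T, a widely used cell line of wild-type genotype that derives from human embryonic kidney. All cells were treated for 6 h, with 3 libraries in each of 11 conditions. The conditions were vehicle (0.1% DMSO), thapsigargin (Tg, 500 nM), AA147 at 10 µM, and AA132 at 0.1, 0.3, 1, 3, 6, 10, 15 and 30 µM. Tg empties calcium stores by inhibiting SERCA and thereby disturbs protein folding in the endoplasmic reticulum (ER). AA147 and AA132 are small molecules whose effect on ER proteostasis the study compared. The labels list 1 sample per condition and do not say whether the 3 numbered libraries of a condition came from separate cultures, so the tests measure the spread between these libraries, which may be technical.

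HSP70 proteins bind exposed hydrophobic stretches of unfolded proteins and release them in a cycle driven by ATP. J-domain proteins such as DNAJB1 bring substrates and start ATP hydrolysis, and nucleotide exchange factors such as BAG3 and the HSP110-type proteins HSPA4 and HSPA4L reset the cycle. HSPA8 is the constitutive member, HSPA1A and HSPA1B are the main stress-inducible members, and HSPA6 is expressed almost only under stress. HSPA2 and HSPA1L are best known from the testis. The inducible genes are classical targets of heat shock factor 1 (HSF1), which binds heat shock elements, repeats of a short unit in alternating orientation. The ER has its own HSP70, HSPA5 (BiP), which belongs to the unfolded protein response.

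HSPA1A, HSPA1B and HSPA1L lie side by side on chromosome 6 in GENCODE v44 (GRCh38): HSPA1L at 31809619 to 31815283 on the minus strand, HSPA1A at 31815543 to 31817946 and HSPA1B at 31827738 to 31830254 on the plus strand. The starts of HSPA1L and HSPA1A are 260 bases apart and face away from each other, so both genes share the stretch between them. HSPA1A, HSPA1B and HSPA6 (chromosome 1, 161524540 to 161526894) each have a single exon, whereas HSPA8 (chromosome 11, 123057489 to 123063230) has 9. DNAJB1 lies on chromosome 19 at 14514769 to 14560391, BAG3 on chromosome 10 at 119651380 to 119677819, and HSPA2 on chromosome 14 at 64535905 to 64546173. HSPA4 lies on chromosome 5 at 133052013 to 133106449, and HSPA4L on chromosome 4 at 127781821 to 127840733.

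The 250 bases before the start of 6 members are printed to show where the heat shock element stands in the genes that changed most, in the constitutive gene and in the co-chaperones. They are RefSeq sequences of GRCh38.p14, read 5′ to 3′ in the direction of each gene; all 10 members were matched, and where the table held more than 1 window, the one at the start of the canonical GENCODE transcript was taken. For DNAJB1 and HSPA8 this start lies inside the gene's span, which longer transcripts extend. Capitals mark each match to GAANNTTC or TTCNNGAA, the heat shock element of 2 units, in which N is any base; each pattern reads the same on both strands, and neighbouring matches can overlap. The regions are chr6:31815293-31815542 (plus strand) for HSPA1A, chr6:31827488-31827737 (plus) for HSPA1B, chr1:161524290-161524539 (plus) for HSPA6, chr11:123062137-123062386 (minus) for HSPA8, chr19:14518398-14518647 (minus) for DNAJB1 and chr10:119651130-119651379 (plus) for BAG3.
HSPA1A: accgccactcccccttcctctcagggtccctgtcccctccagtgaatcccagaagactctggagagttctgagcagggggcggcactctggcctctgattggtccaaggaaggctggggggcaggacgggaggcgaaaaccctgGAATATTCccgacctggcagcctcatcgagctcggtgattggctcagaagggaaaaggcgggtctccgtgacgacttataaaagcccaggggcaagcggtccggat
HSPA1B: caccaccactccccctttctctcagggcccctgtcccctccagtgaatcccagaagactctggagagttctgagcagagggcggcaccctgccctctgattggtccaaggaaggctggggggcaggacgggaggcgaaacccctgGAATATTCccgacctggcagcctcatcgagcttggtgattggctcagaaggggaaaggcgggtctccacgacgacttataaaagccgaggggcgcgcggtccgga
HSPA6: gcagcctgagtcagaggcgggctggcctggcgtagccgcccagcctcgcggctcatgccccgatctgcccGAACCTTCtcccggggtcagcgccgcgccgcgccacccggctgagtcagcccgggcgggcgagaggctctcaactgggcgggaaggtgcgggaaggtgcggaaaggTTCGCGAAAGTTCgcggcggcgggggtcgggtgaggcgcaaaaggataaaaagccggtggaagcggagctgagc
HSPA8: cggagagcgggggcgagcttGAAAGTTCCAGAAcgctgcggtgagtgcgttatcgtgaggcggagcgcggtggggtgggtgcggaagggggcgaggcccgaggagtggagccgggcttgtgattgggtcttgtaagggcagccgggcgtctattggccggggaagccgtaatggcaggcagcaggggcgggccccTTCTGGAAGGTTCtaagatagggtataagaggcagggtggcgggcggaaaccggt
DNAJB1: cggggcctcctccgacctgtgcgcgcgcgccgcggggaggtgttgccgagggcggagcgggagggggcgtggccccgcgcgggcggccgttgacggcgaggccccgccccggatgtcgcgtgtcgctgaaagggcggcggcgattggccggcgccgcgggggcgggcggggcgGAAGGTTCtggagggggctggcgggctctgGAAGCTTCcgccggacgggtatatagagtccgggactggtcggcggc
BAG3: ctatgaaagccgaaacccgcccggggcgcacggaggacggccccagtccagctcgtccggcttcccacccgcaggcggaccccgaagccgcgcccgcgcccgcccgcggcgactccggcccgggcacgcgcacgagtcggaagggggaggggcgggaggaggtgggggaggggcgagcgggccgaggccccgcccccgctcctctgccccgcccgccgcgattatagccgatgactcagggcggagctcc

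Of the 10 members, 7 held at least 1 such match in these 250 bases, against 11.6% of 34943 RefSeq gene start windows of the same length. HSPA1A and HSPA1B carried the same letters, GAATATTC, 106 and 105 bases before their starts. The match of HSPA1A, at chr6:31815437-31815444, is also the match of HSPA1L, 161 bases before the start of that gene on the other strand. HSPA6 held 3 matches and HSPA8 held 4, and in both some overlapped to form the longer element of 3 units, which 0.441% of all windows held. That longer element started 74 bases before HSPA6, and 230 and 55 bases before HSPA8. DNAJB1 held 2 separate matches, 77 and 47 bases before its start, and HSPA4L held 1, 170 bases before its start. HSPA2, HSPA4 and BAG3 held none in these windows. No member's window held the ER stress response element, the motif of ER chaperone genes, which 0.0744% of all windows held. These matches describe the letters and do not show binding.

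HSPA1A and HSPA1B are nearly the same sequence, so how counts were split between them is uncertain. Of 2301 windows of 100 bases in the HSPA1A transcript, 1666 (72.4%) also occur in HSPA1B. HSPA1A took 42.0% to 46.7% of the summed counts of this pair in each of the 33 libraries. The pair is therefore given mainly as a sum, HSPA1A+HSPA1B, with each gene beside it where their tests are reported. HSPA6 shares 27.8% of its windows of 100 bases with the pseudogene HSPA7. The deposited counts hold no entry named HSPA7, and the part of HSPA6 counts that came from it was not tested. HSPA1L shares 61 of 2713 windows of 50 bases with HSPA1A and none of 100 bases. HSPA8 shares 16.7% of its windows of 50 bases with its processed pseudogenes and none of 100 bases. DNAJB1 overlaps TECR on the opposite strand, and the use of strand in counting is not given in the sources used here, so reads of DNAJB1 and TECR cannot be told apart where they overlap.

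Library totals were 32265433 to 37958312 counts, and the lowest member count in any library was 35 (HSPA6 in Tg). The 6 markers of HEK293T cells were counted in every library, with a summed level of 1703 to 2932 CPM (counts scaled to a common library total). The highest medians among them were those of VIM (1297 CPM), KRT8 (867) and KRT18 (311). PAX2, on the same list, was low, at 0.407 to 1.53 CPM. The 7 markers of other cell types summed to 19.99 to 50.1 CPM, nearly all of it COL1A1; PTPRC was at 0 in 29 libraries and CD3E in 32. Over the genes that are no members, 6 libraries stood apart from both others of their condition: library 1 of vehicle, of AA147, of AA132 1 µM and of AA132 10 µM, library 2 of AA132 0.1 µM and library 3 of AA132 30 µM. A library was named here when both of its chi-square values per degree of freedom against the others were over 2 times the value between those others; for vehicle these were 49.9 and 64.5 against 7.92, and for AA132 10 µM 35.3 and 37.4 against 6.84. The dose order was also broken in a pair of libraries. The library labelled AA132 1 µM library 1 had 1660 CPM of HSPA5, against 1028 and 1093 in the others of that dose. The library labelled AA132 3 µM library 3 had 1042 CPM, against 1921 and 1969. The HSPA1A+HSPA1B sum followed the same libraries, as given below, and results that rest on them are given with and without them. The cause was not tested.

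**Figure D1:**
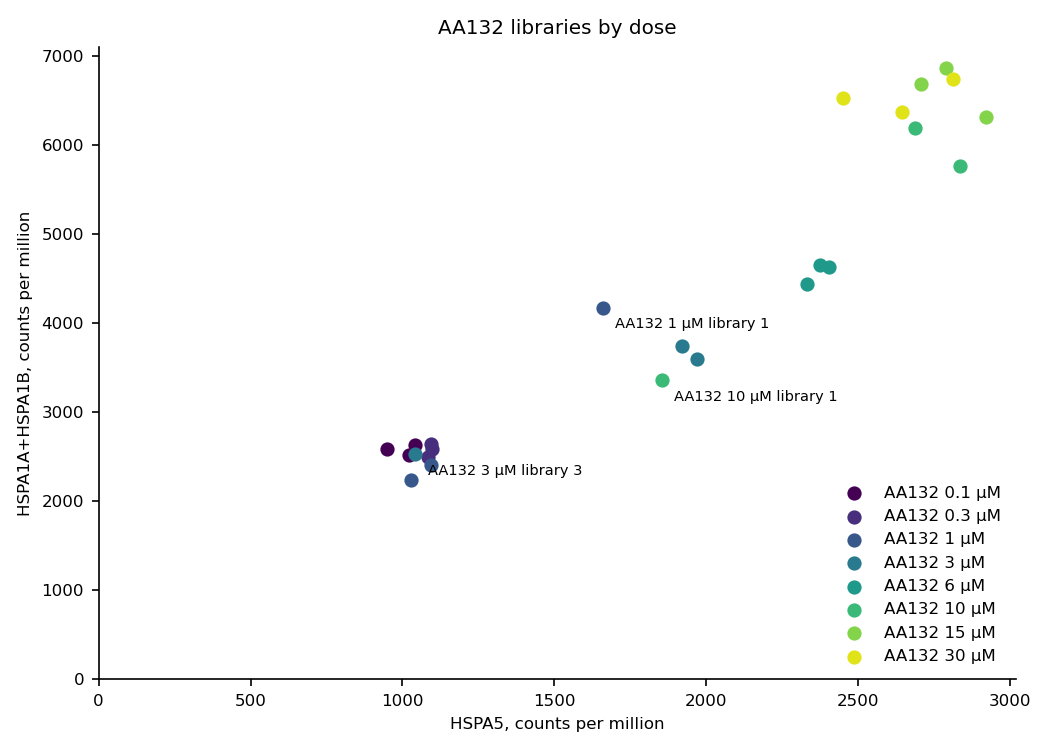
HSPA1A+HSPA1B (y axis, CPM) against the ER chaperone HSPA5 (x axis, CPM) in the 24 AA132 libraries, 1 point each, coloured by labelled dose. AA132 1 µM library 1 (4170 CPM of the sum) lies near the 3 µM libraries, AA132 3 µM library 3 (2522 CPM) among the lowest doses, and AA132 10 µM library 1 (3354 CPM) below the 6 µM libraries.

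In vehicle the members spanned more than 3 orders of magnitude. Levels that compare genes are CPM per kilobase of the canonical GENCODE transcript, as mean ± SD over 3 libraries. HSPA8 was highest at 1408 ± 67.5, followed by HSPA1B at 543 ± 46.2 and HSPA1A at 459.8 ± 33.8. HSPA4 had 108 ± 3.55, DNAJB1 63.5 ± 1.83 and BAG3 25.7 ± 1.82. HSPA2 (11.2 ± 0.545), HSPA4L (5.23 ± 1.06), HSPA1L (1.85 ± 0.129) and HSPA6 (0.717 ± 0.0218) were lowest. No pair of neighbours in this order overlapped between libraries, but HSPA1B over HSPA1A (lowest 509 against highest 499) rests on the uncertain split of their counts. HSPA2 over HSPA4L rests on the transcript lengths used, 2497 bases for HSPA2 and 10608 for HSPA4L. Without division by length, HSPA4L was the higher of these genes in vehicle (55.5 against 28.1 CPM). The order of the 10 genes was the same in all conditions but AA132 30 µM, where HSPA6 (3.42 ± 0.190) came above HSPA1L (3.21 ± 0.113).

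**Figure D2:**
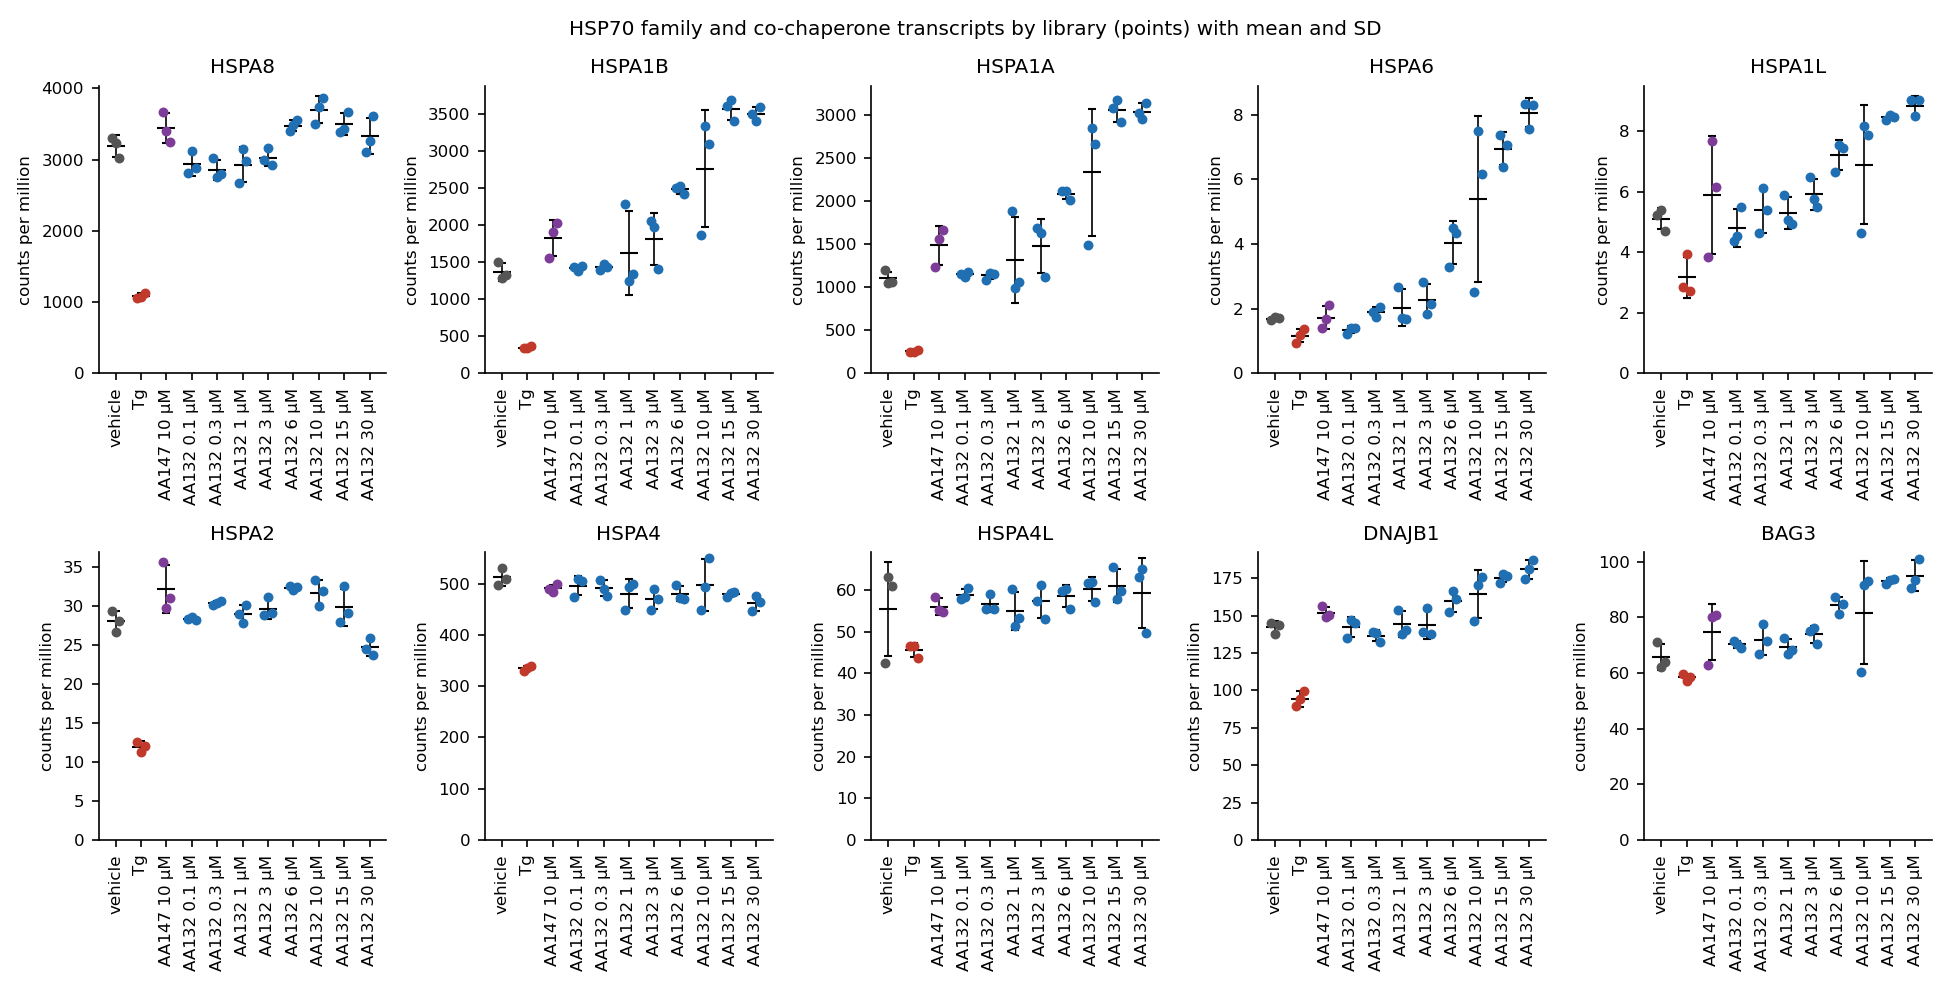
Level of each member (y axis, CPM, starting at 0; scales differ between genes) in 11 conditions (x axis); points are libraries, and the black bar and whiskers are mean and SD of 3 libraries. Tg has the lowest mean for every member, and HSPA1A, HSPA1B, HSPA6 and HSPA1L reach their highest means at 15 or 30 µM AA132.

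Tg lowered most of the family. Of the 10 members, 8 were called lower and none higher at an adjusted p under 0.05, in edgeR's quasi-likelihood test with Benjamini-Hochberg adjustment over all genes; among all genes tested, 15.0% were called lower. The median log2 fold change of the members was -0.65, against 0.0048 for all genes. In bulk RNA, fewer cells of a kind and less RNA per cell cannot be told apart. All comparisons against vehicle share the same 3 vehicle libraries, so they are not independent of each other. The Tg and vehicle libraries of HSPA4L overlapped. HSPA5, the HSP70 of the ER, rose in Tg, from 881.5 to 1025 CPM in vehicle to 10780 to 11320 CPM.

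The inducible pair fell furthest. HSPA1A+HSPA1B had 2695, 2333 and 2380 CPM in the vehicle libraries and 585, 587 and 633 CPM in the Tg libraries. The Tg values lie close together and far below the lowest vehicle library. The sum fell by 2.04 on the log2 scale (SE 0.173, adjusted p = 2.2e-11), to 0.244 of vehicle. HSPA1A alone fell by 2.11 and HSPA1B by 1.98. HSPA1A also made up a smaller share of the pair's counts in Tg (42.4% ± 0.310) than in vehicle (44.7% ± 0.382), with no overlap between libraries and no test made.

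The constitutive gene fell as well. HSPA8 had 3308, 3238 and 3015 CPM in vehicle and 1060, 1068 and 1133 CPM in Tg. All Tg libraries were at about the same level, near 0.341 of vehicle (log2 fold change -1.55, SE 0.0664, adjusted p = 8.1e-19). HSPA2 fell from 28.1 ± 1.36 to 11.96 ± 0.666 CPM, a log2 fold change of -1.23 (SE 0.0757, adjusted p = 7.7e-15). HSPA1L fell from 5.12 ± 0.356 to 3.18 ± 0.679 CPM, a log2 fold change of -0.69 (SE 0.194, adjusted p = 0.0063). Added per kilobase, the 6 HSP70 genes of this group (HSPA1A, HSPA1B, HSPA1L, HSPA2, HSPA6 and HSPA8) went from 2424 ± 132.2 to 731 ± 28.5.

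Among the partners of HSP70, HSPA4, HSPA4L and DNAJB1 were called lower. HSPA4, the HSP110-type exchange factor, fell by 0.62 on the log2 scale (SE 0.0586, adjusted p = 3.2e-10). DNAJB1, the J-domain co-chaperone, had 145, 138 and 144 CPM in vehicle and 89.4, 94.3 and 99.97 CPM in Tg, a log2 fold change of -0.59 (SE 0.0654, adjusted p = 9.3e-09). TECR, which overlaps it, had a log2 fold change of -0.19 (adjusted p = 0.10). HSPA4L was called at -0.28 (adjusted p = 0.030), but vehicle library 1 (42.5 CPM) lay below the Tg libraries (43.7 to 46.6 CPM), and the call was lost without Tg library 2 or 3 or vehicle library 2 or 3 (adjusted p 0.054 to 0.15). BAG3 was at -0.17 (95% interval -0.38 to 0.04, adjusted p = 0.22) and HSPA6 at -0.54 (-1.11 to 0.03, adjusted p = 0.15), and neither was called. HSPA6 was called lower (-0.57, adjusted p = 0.037) without the 6 libraries that stood apart.

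AA132 raised the inducible genes with dose. At 0.1, 0.3 and 1 µM no member was called by edgeR or by DESeq2. With edgeR 0%, 0% and 0% of all genes were called in either direction. At an unadjusted p under 0.05 there were 0, 1 and 0 of the 10 members, against 796, 981 and 1057 of all 17793 genes. At 3 µM no member was called by edgeR or by DESeq2 (0.118% of all genes were called). An unadjusted p under 0.05 was found there for 3 of the 10 members and for 1635 of all 17793 genes. At 6 µM 3 members were called higher (HSPA1A, HSPA1B and HSPA6), against 0.866% of all genes. At 10 µM the same 3 members were called higher, against 1.03% of all genes. At 15 µM 6 members were called higher, against 1.97%, and at 30 µM the same 6, against 3.86%. These 6 were HSPA1A, HSPA1B, HSPA6, HSPA1L, BAG3 and DNAJB1. No member was called lower by edgeR at any dose.

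**Figure D3:**
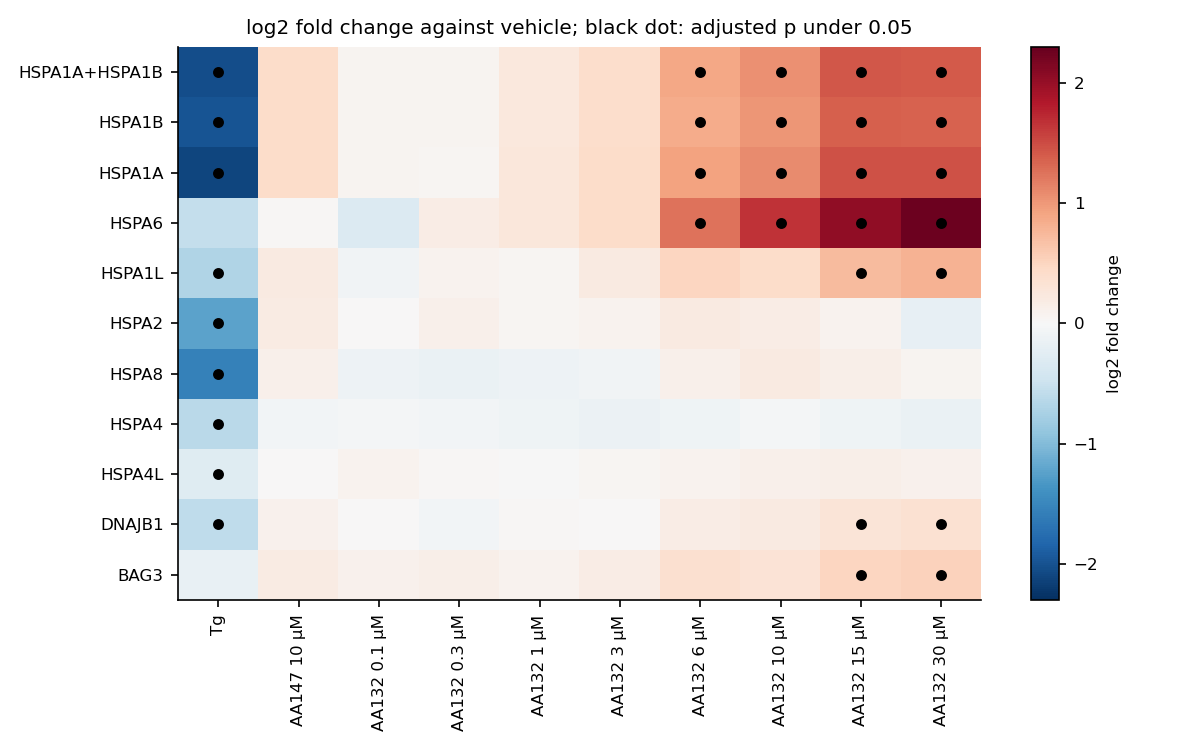
Log2 fold change against vehicle (colour, blue lower and red higher) of each member and of the HSPA1A+HSPA1B sum (rows) in each treatment (columns); a black dot marks an adjusted p under 0.05. The Tg column is blue with 8 members called, and dots appear from 6 µM AA132 for HSPA1A, HSPA1B and HSPA6 and from 15 µM for HSPA1L, BAG3 and DNAJB1.

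The HSPA1A+HSPA1B sum shows the course of the response. It had 2585, 2510 and 2623 CPM at 0.1 µM and 2488, 2637 and 2589 CPM at 0.3 µM, within the range of vehicle. At 1 µM library 1 had 4170 CPM and the others 2233 and 2404. At 3 µM library 3 had 2522 CPM and the others 3741 and 3597. So 1 library of each of these doses lay far from the other two, and the SD (1072 and 666 CPM) was larger than the difference of the mean from vehicle at 1 µM and below it at 3 µM, where vehicle had 2469 ± 197 CPM and these doses had means of 2936 and 3287 CPM. The log2 fold change was 0.25 at 1 µM (95% interval -0.09 to 0.59, adjusted p = 0.86) and 0.41 at 3 µM (0.07 to 0.75, adjusted p = 0.43). Without the libraries labelled AA132 1 µM library 1 and AA132 3 µM library 3, these values were -0.09 (adjusted p = 0.97) and 0.57 (adjusted p = 0.045).

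From 6 µM upward all libraries of the sum were above all vehicle libraries. It had 4621, 4645 and 4432 CPM at 6 µM, 3354, 6185 and 5762 CPM at 10 µM, 6681, 6864 and 6314 CPM at 15 µM and 6528, 6365 and 6740 CPM at 30 µM. The libraries at 6, 15 and 30 µM were tight, while 10 µM library 1 lay below the 6 µM libraries. The log2 fold changes were 0.89 (SE 0.167, adjusted p = 0.0026), 1.05 (SE 0.168, adjusted p = 0.00026), 1.42 (SE 0.169, adjusted p = 1.7e-06) and 1.41 (SE 0.169, adjusted p = 9.4e-07). Without 10 µM library 1 the value at 10 µM was 1.27. The sum and each gene of the pair lost their calls at 10 µM with only the 2 groups compared in the fit (adjusted p = 0.13 for each). The value at 30 µM is 2.65 times vehicle, and the means at 15 and 30 µM (6620 ± 280.1 and 6544 ± 188 CPM) differed by less than their SD.

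HSPA6, the lowest member in vehicle, had the largest fold change at 6, 10, 15 and 30 µM. It had 1.63, 1.74 and 1.70 CPM in vehicle, 3.28, 4.51 and 4.33 at 6 µM, 2.51, 7.48 and 6.16 at 10 µM, 7.37, 6.38 and 7.06 at 15 µM and 8.34, 7.54 and 8.30 at 30 µM. Each of these libraries was above the vehicle libraries. In counts, vehicle libraries held 59 to 64 and 30 µM libraries 277 to 313. HSPA6 lost its call at 10 µM with only the 2 groups compared in the fit (adjusted p = 0.18). The log2 fold change rose from 1.26 (SE 0.249, adjusted p = 0.0043) at 6 µM to 2.25 (SE 0.243, adjusted p = 1.5e-07) at 30 µM, which is 4.76 times vehicle. Even so, HSPA6 at 30 µM was 0.0826% ± 0.00440 of the 6 HSP70 genes per kilobase.

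HSPA1L, the gene that shares its start region with HSPA1A, rose to 8.38, 8.53 and 8.49 CPM at 15 µM and 9.03, 8.50 and 9.05 CPM at 30 µM, from 4.72 to 5.40 CPM in vehicle. Libraries of these doses did not overlap with vehicle. Its log2 fold change was 0.73 at 15 µM (adjusted p = 0.021) and 0.79 at 30 µM (adjusted p = 0.0057). The call at 15 µM was lost when any library of that dose or vehicle library 3 was left out (adjusted p 0.058 to 0.070). It was also lost with only the 2 groups compared in the fit (adjusted p = 0.064). The far more abundant HSPA1A, which starts 260 bases away, moved with it, and the part of reads from there was not tested.

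Both co-chaperones were called higher at 15 and 30 µM. BAG3 had 92.1, 93.6 and 93.8 CPM at 15 µM and 90.7, 93.4 and 101 CPM at 30 µM, all above the vehicle libraries at 71.1, 62.3 and 63.9 CPM. Its log2 fold change was 0.50 (SE 0.101, adjusted p = 0.0026) at 15 µM and 0.53 (SE 0.101, adjusted p = 0.00095) at 30 µM. At 6 µM edgeR did not call BAG3 (0.36, SE 0.101, adjusted p = 0.077), though all libraries (81.1 to 87.2 CPM) were above vehicle. DESeq2 called it there (adjusted p = 0.029), as did edgeR with no filter on low counts (0.0025) or without the 6 libraries that stood apart (3.8e-06). Leaving out 1 library gave an adjusted p of 0.025 (without vehicle library 1) to 0.27. At 10 µM library 1 had 60.4 CPM and the others 91.7 and 93.2; BAG3 was not called there (log2 fold change 0.31, adjusted p = 0.13) and was called without that library (0.48, adjusted p = 0.00037). DNAJB1 rose to 174.6, 181 and 187 CPM at 30 µM, a log2 fold change of 0.35 (SE 0.0648, adjusted p = 0.00074), and had 0.30 at 15 µM (adjusted p = 0.0056). With only the 2 groups compared in the fit, both genes lost their calls at 15 and 30 µM. The adjusted p at 30 µM was then 0.10 for DNAJB1 and 0.052 for BAG3. At 15 µM it was 0.26 for DNAJB1 and 0.064 for BAG3. TECR had a log2 fold change of 0.21 at 30 µM (adjusted p = 0.16).

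HSPA8, HSPA4, HSPA2 and HSPA4L were not called by edgeR at any dose. HSPA8 had 3110, 3263 and 3605 CPM at 30 µM, overlapping the vehicle libraries, with a log2 fold change of 0.06 (95% interval -0.07 to 0.19, adjusted p = 0.65). Its highest mean was at 10 µM, 3700 ± 189 CPM, with all libraries above vehicle (log2 fold change 0.22, 95% interval 0.08 to 0.35, edgeR adjusted p = 0.092). DESeq2 called HSPA8 there (adjusted p = 0.034). HSPA4 at 30 µM was at -0.15 (-0.27 to -0.03, adjusted p = 0.12), HSPA2 at -0.18 (-0.33 to -0.04, adjusted p = 0.13) and HSPA4L at 0.10 (-0.11 to 0.30, adjusted p = 0.64). These intervals exclude a doubling of any of them.

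When the 6 libraries that stood apart were left out, more members were called. At 6 µM 8 were called in place of 3, at 10 µM 7 in place of 3, at 3 µM 3 in place of 0, and at 15 and 30 µM 7 in place of 6. HSPA8 was then called at 10 µM (log2 fold change 0.28, adjusted p = 0.00040) and at 15 µM (0.16, adjusted p = 0.031), and HSPA4 was called lower at 30 µM (-0.18, adjusted p = 0.027). Calls over all genes rose as well: to 704 from 21 at 3 µM, to 1571 from 190 at 6 µM, to 1904 from 250 at 10 µM, to 1579 from 491 at 15 µM and to 2179 from 1255 at 30 µM. Vehicle then has 2 libraries, and this choice was made after seeing the data, though from genes that are no members.

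A slope on log10 dose was fitted over the 24 AA132 libraries. It was called as rising for 7 members, against 9.83% of all 17554 genes tested, and falling for none. The slopes, in log2 units per 10-fold dose, were 1.10 (SE 0.0917) for HSPA6, 0.62 (SE 0.0610) for HSPA1A+HSPA1B, 0.36 (SE 0.0482) for HSPA1L, 0.19 (SE 0.0316) for BAG3, 0.16 (SE 0.0227) for DNAJB1 and 0.14 (SE 0.0249) for HSPA8. The separate slopes were 0.64 for HSPA1A and 0.60 for HSPA1B. HSPA2 (-0.01), HSPA4 (-0.02) and HSPA4L (0.03) had intervals that include 0. Leaving out any 1 library kept the slope of the sum between 0.60 and 0.65. Leaving out AA132 1 µM library 1 and AA132 3 µM library 3 gave 0.63. For HSPA8 the slope starts from means of 2933 ± 162 CPM at 0.1 µM and 2854 ± 142 CPM at 0.3 µM, against 3187 ± 153 CPM in vehicle, with libraries that overlap.

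The make-up of the HSP70 transcripts differed between treatments. Per kilobase, HSPA1A+HSPA1B was 41.3% ± 1.53 of the 6 HSP70 genes in vehicle, 33.4% ± 0.205 in Tg, 54.4% ± 1.14 at 6 µM AA132, 54.7% ± 7.15 at 10 µM, 63.2% ± 1.93 at 15 µM and 64.2% ± 1.32 at 30 µM. HSPA8 went from 58.1% ± 1.53 in vehicle to 65.7% ± 0.168 in Tg and 35.4% ± 1.33 at 30 µM. The ratio of the inducible pair to HSPA8 was 0.712 ± 0.0446 in vehicle, 0.508 ± 0.00442 in Tg and 1.82 ± 0.107 at 30 µM, and these 3 conditions did not overlap with one another. The sum of the 6 genes was 4145 ± 175 per kilobase at 30 µM, above 2424 ± 132.2 in vehicle. HSPA2 stayed under 0.71% of the 6 genes in every library. No test was made on these shares.

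**Figure D4:**
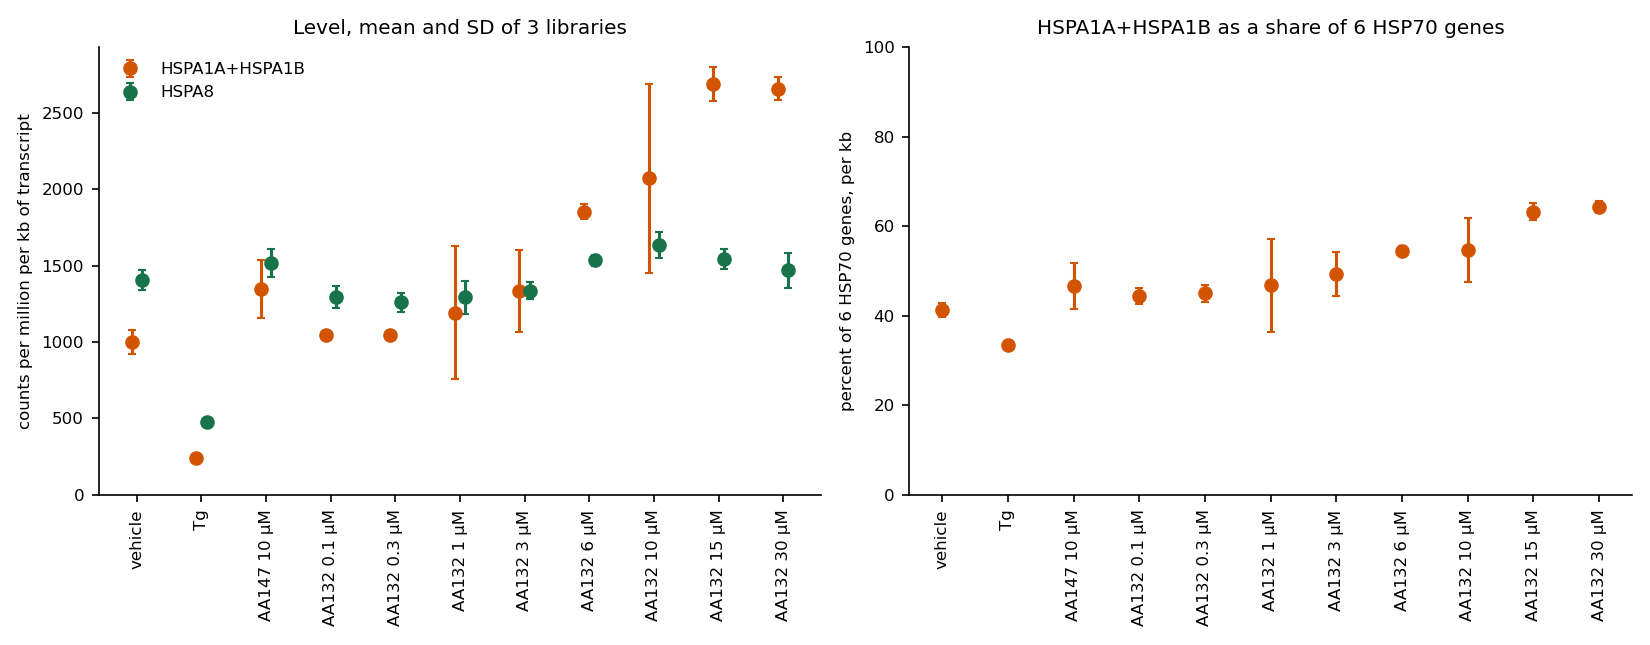
Left, level per kilobase of transcript (y axis, CPM per kilobase, from 0) of HSPA1A+HSPA1B and HSPA8 in 11 conditions (x axis); right, HSPA1A+HSPA1B as a percent of 6 HSP70 genes (y axis, 0 to 100). Points are means and bars SD of 3 libraries; the mean of the pair lies below that of HSPA8 in vehicle and Tg and above it from 6 µM AA132, although in 10 µM library 1 the pair was 0.882 of HSPA8.

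AA147 was given at 1 dose, 10 µM. No member was called against vehicle by edgeR or by DESeq2, where 0.0225% of all genes were called. An unadjusted p under 0.05 was found for 3 of the 10 members (HSPA1A, HSPA1B and HSPA2) and for 1211 of all 17793 genes. HSPA1A+HSPA1B had 2796, 3459 and 3691 CPM, all above the vehicle libraries, with a log2 fold change of 0.42 (95% interval 0.09 to 0.76, adjusted p = 0.62). HSPA6 had 1.40, 1.67 and 2.11 CPM, overlapping vehicle, with a log2 fold change of 0.03 (-0.51 to 0.57). BAG3 had 63.1 CPM in library 1 and 80.0 and 80.8 CPM in the others. Without the 6 libraries that stood apart, which include AA147 library 1 and vehicle library 1, 3 members were called, and 162 of all genes in place of 4: the pair's sum was then at 0.60 (adjusted p = 0.00042) and BAG3 at 0.35 (adjusted p = 0.0017).

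AA132 and AA147 were compared at their matched dose of 10 µM, the 1 pair of compounds the design allows. HSPA6 was the 1 member called, higher with AA132, against 0.0562% of all genes called higher. Its log2 difference was 1.64 (SE 0.245, 95% interval 1.14 to 2.14, adjusted p = 0.0027), and all AA132 libraries (2.51, 7.48 and 6.16 CPM) were above all AA147 libraries. The call was lost without AA132 10 µM library 2 (adjusted p = 0.082). It was also lost with only the 2 groups compared in the fit (adjusted p = 0.77), where no gene was called. HSPA1A+HSPA1B was 0.62 higher with AA132 (0.28 to 0.96, adjusted p = 0.19), but AA132 library 1 (3354 CPM) lay within the AA147 range. Without that library the difference was 0.85 (adjusted p = 0.0055), and without the 6 libraries that stood apart 0.74 (adjusted p = 5.7e-06). DNAJB1 (0.11, interval -0.02 to 0.24), BAG3 (0.13, -0.07 to 0.34) and HSPA8 (0.11, -0.03 to 0.24) were not called. The intervals were -0.17 to 0.13 for HSPA2 and -0.10 to 0.14 for HSPA4.

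Between 10 and 30 µM AA132, HSPA2 was the 1 member called, and it was lower at 30 µM; 0.596% of all genes were called lower. HSPA2 had 33.3, 29.97 and 31.9 CPM at 10 µM and 24.5, 25.8 and 23.8 CPM at 30 µM, with no overlap (log2 difference -0.36, SE 0.0725, adjusted p = 0.013). The call was lost without AA132 10 µM library 1 (adjusted p = 0.059), 30 µM library 1 (0.076) or 30 µM library 3 (0.072). The fit with only the 2 groups compared did not call it either (adjusted p = 0.31). HSPA1A+HSPA1B differed by 0.36 (95% interval 0.02 to 0.70, adjusted p = 0.33), and by 0.13 without 10 µM library 1.

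AA132 at 30 µM and Tg differed in every member. All 10 were called higher with AA132, against 14.3% of all genes. HSPA1A+HSPA1B was 3.44 higher on the log2 scale (SE 0.183, adjusted p = 5.2e-16), 10.9 times the level in Tg. HSPA6 was 2.79 higher (adjusted p = 1.9e-10), HSPA8 1.61 higher (adjusted p = 8.8e-19) and HSPA1L 1.48 higher. HSPA4L had the smallest difference, 0.38 (adjusted p = 0.0038). DNAJB1 was 0.94 higher (adjusted p = 3.7e-13), and TECR, which overlaps it, was also called, 0.40 higher (adjusted p = 0.00067). HSPA8, HSPA2 and HSPA4 were called lower in Tg against vehicle, and none of them was called between AA132 at 30 µM and vehicle.

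Other genes of the cytosolic chaperone system were taken from lists chosen with earlier results of these data known. The lists overlap: DNAJA1 and DNAJB4 are on both the HSF1 and the J-domain list, and HSPH1 and STIP1 on both the HSF1 and the partner list. Of 19 genes commonly linked to HSF1, 18 were tested. In Tg, 11 were called lower and 1 higher (of all genes, 15.0% lower and 16.2% higher), with a median log2 fold change of -0.45 against 0.0048 for all genes. The largest were HSPE1, the mitochondrial co-chaperonin (-0.78, adjusted p = 1.7e-08), the J-domain protein DNAJA1 (-0.76, adjusted p = 7.9e-11) and the cytosolic HSP90 gene HSP90AA1 (-0.71, adjusted p = 7.3e-09). The 1 called higher was SERPINH1, a collagen chaperone of the ER (0.22, adjusted p = 0.012). HSF1 itself was at 0.24 (adjusted p = 0.064). With AA132 at 30 µM 5 were called higher and none lower (of all genes, 3.86% higher and 3.19% lower), and the median was 0.03 against -0.0013 for all genes. The largest were DNAJB4, a cytosolic J-domain protein (0.53, adjusted p = 0.019), CHORDC1, a partner of HSP90 (0.30, adjusted p = 0.0015), and HSP90AA1 (0.30, adjusted p = 0.016). At 10 µM 4 were called higher (1.03% of all genes), among them DNAJB4 (0.58) and HSP90AA1 (0.34). With AA147 none was called.

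The same shares of all genes apply to the lists that follow. Among 12 J-domain genes outside the members, 11 were tested. In Tg 4 were called lower and 1 higher, DNAJB5 (1.34, adjusted p = 5.6e-11). In AA132 at 30 µM 3 were called higher, DNAJB5 (0.60), DNAJB4 (0.53) and DNAJB2 (0.37), and 3 lower; at 10 µM DNAJB5 (0.60) and DNAJB4 (0.58) were called higher. So DNAJB5 was called higher in both treatments, and DNAJB1 was called lower in Tg and higher at 30 µM. Of 10 exchange factors and other partners, Tg lowered 3: the HSP110-type HSPH1 (-0.60), STIP1, which links HSP70 to HSP90 (-0.54), and the exchange factor BAG1 (-0.47); 1 was called higher. AA132 at 30 µM raised HSPH1 (0.22, adjusted p = 0.024) and lowered STUB1, a ubiquitin ligase that binds HSP70 (-0.33, adjusted p = 0.016). At 10 µM BAG2 (0.40) and HSPH1 (0.23) were called higher. With AA147 none of these genes was called.

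Of 7 HSP70 relatives of other compartments or classes, 5 were called higher in Tg, against 16.2% of all genes, and none lower. They were led by HSPA5 (3.52, adjusted p = 2.0e-17), HYOU1, the large ER chaperone that serves as its exchange factor (2.80, adjusted p = 5.1e-21), and HSPA13 (1.87, adjusted p = 3.0e-12). The list's median was 0.58, where that of the cytosolic members was -0.65. With AA132 at 30 µM 3 were called higher, HSPA5 (1.46), HYOU1 (0.92) and HSPA12A (0.43), and at 10 µM HSPA5 (1.36) and HYOU1 (0.75). In Tg HSPA5 was called higher and the inducible pair lower, and in AA132 at 10 and 30 µM HSPA5 and the inducible pair were both called higher.

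**Figure D5:**
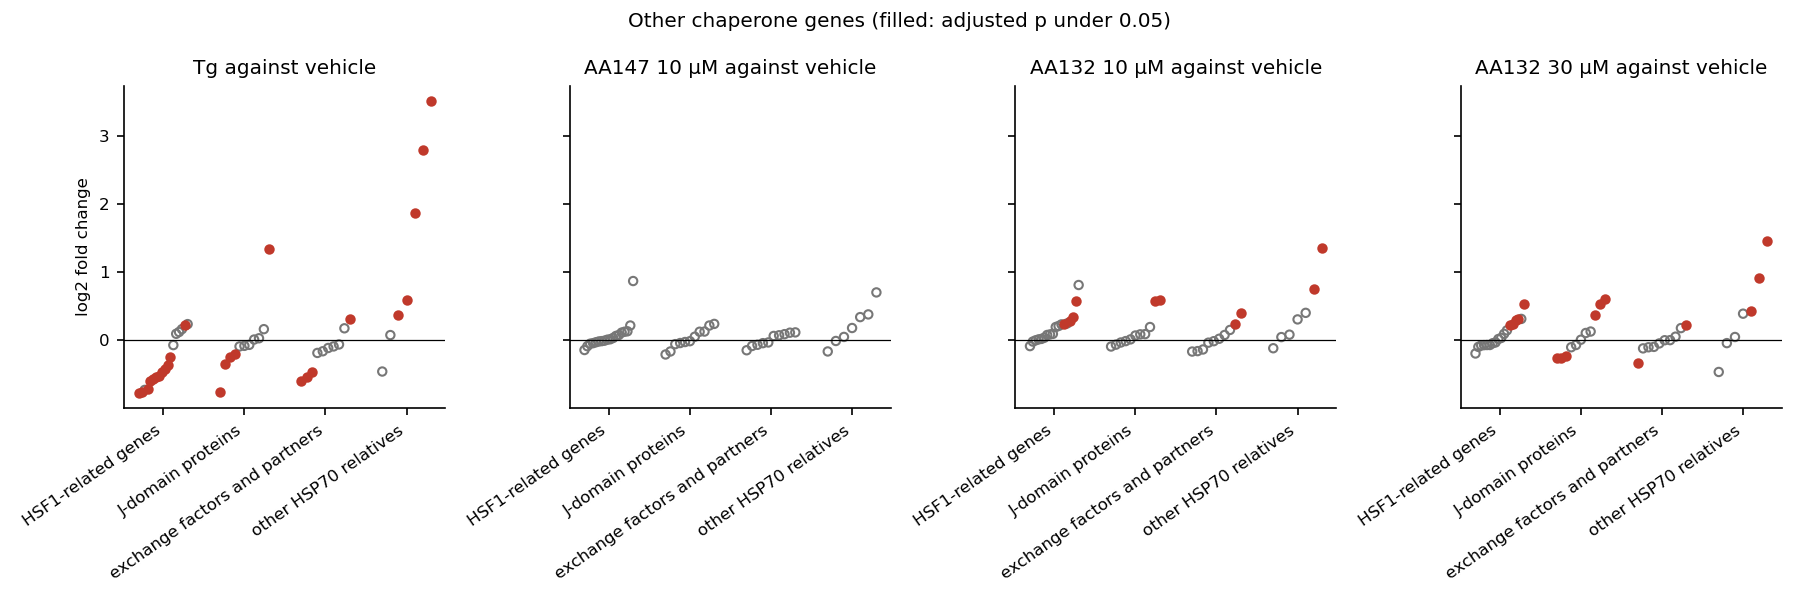
Log2 fold change against vehicle (y axis) of single genes, 1 point each, of 4 chaperone lists (x axis) in 4 treatments; filled points have an adjusted p under 0.05. In Tg most HSF1-related genes lie below 0 and HSPA5 reaches 3.52 among the other HSP70 relatives; in AA147 no point is filled.

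The genes with the most similar profile over the 11 condition means of log2 CPM were ranked among 2317 genes with at least 10 CPM in some condition and a span of at least 0.5. For HSPA1A+HSPA1B they were ABHD3 (Pearson r = 0.992), RTN4R (0.986), HSPH1 (0.985), CHRNA5 (0.983) and CMTM3 (0.981). HSPH1, which is on the list of exchange factors, went from 280 CPM in vehicle to 185 in Tg and 327 at 30 µM AA132. For DNAJB1 they were RTN4R (0.990), CMTM3 (0.985), DEGS1 (0.985), ABHD3 (0.983) and MLLT11 (0.982), so 3 genes were shared with the pair. For BAG3 they were TNFRSF10D (0.959), DSEL (0.957), NOTCH1 (0.957), UAP1L1 (0.955) and TUBB3 (0.942). For HSPA8 they were EPHB6 (0.988), ITGA7 (0.987), PROS1 (0.986), LAMB2 (0.982) and CAMKK1 (0.981). These values describe 11 means that share libraries and scaling. Those of HSPA8 rest on Tg: without it they were 0.731 to 0.839, whereas those of ABHD3, RTN4R, HSPH1, CHRNA5 and CMTM3 with the pair were 0.947 to 0.984.

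Among the members themselves, the profile of HSPA1A+HSPA1B over the 10 conditions other than Tg followed DNAJB1 (r = 0.978), HSPA1L (0.977), BAG3 (0.972) and HSPA6 (0.972) closely. The value was 0.739 with HSPA8, -0.13 with HSPA2 and -0.57 with HSPA4. With Tg included, HSPA8 and HSPA2 came to 0.909 and 0.782 and HSPA4 to 0.731, and all of them had their lowest mean there.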

How the data were processed

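The submitters deposited 1 table of expected counts per gene, with no scaling between libraries recorded. Values of 0.009, the floor of the table, were taken as 0 (43.5% of cells); the rest were rounded, and the members' values were whole as deposited. The build is GRCh38.p7 per the submitters' processing notes; the aligner, counter, annotation and use of strand are not given in the sources used here. RNA was extracted with a column kit and sequenced on DNBSEQ, per the labels' protocols. Library totals were 32265433 to 37958312 counts, so counting error is small for all members but HSPA6 and HSPA1L; no molecular identifiers are mentioned, so PCR copies may be counted more than once.

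Entries sharing a name were summed (38021 genes). Genes were tested with edgeR 4.0.16 in R 4.3.3 (quasi-likelihood, TMM factors, edgeR's filter on low counts, all 11 conditions in 1 fit without a replicate block), adjusted by Benjamini-Hochberg over all 17793 genes and called under 0.05. The dose slope used the AA132 libraries alone. HSPA1A and HSPA1B were summed before a second fit for the sum. SE is the log2 fold change over the root of F. CPM use TMM factors. Per-kilobase levels use the canonical GENCODE v44 transcript. DESeq2 1.42.0, other normalization, no filter, only the groups compared, a replicate block and leaving out libraries were alternatives. The functions were tested on simulated data.

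The labels do not say whether the numbers of the libraries pair them, and the main fit used no pairing. Same-numbered libraries' deviations correlated by -0.15 to 0.18 over 13 comparisons, which does not exclude a weak pairing. The members, lists, named genes (up to 3 called genes with the largest change per list, 5 most similar profiles) and alternatives were chosen with earlier results of these data known. One gene that the naming rule picks is not reported here. Amino acid sequences were not analysed here.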

Additional observations from a re-analysis of the deposited data

How the results depend on the processing

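Of 1653 alternative values for single members or their sum, 1549 kept their direction and their side of the threshold; 24 lost a call, 51 gained one and 29 changed sign. None of the 29 belonged to a called value, and their adjusted p was 0.18 or more. These totals hold no single member at AA132 doses under 6 µM, and they hold the sum at 1 and 3 µM but at no lower dose. Calls that single members gained at 3 µM are therefore not among the 51. Sign changes of single members at doses under 6 µM were not counted either. The counts of members called changed by more than 1.5 times as follows, and the cause was not tested. With no filter on low counts 2 members were called for AA147 and 2 for AA132 3 µM (0 before), and 3 each for AA132 against AA147 at 10 µM and for 30 against 10 µM (1 before); over all genes the calls were 82 (4 before), 153 (21), 98 (12) and 346 (166). DESeq2 called 5 at 10 µM in place of 3, adding DNAJB1 and HSPA8, and 489 of all genes in place of 250. With only the groups compared in the fit, which leaves fewer libraries to estimate the spread, the count was 0 in place of 3 at 10 µM, 3 in place of 6 at 15 µM, 4 in place of 6 at 30 µM, and 0 in place of 1 both for AA132 against AA147 and for 30 against 10 µM, while all genes called fell to 8, 46, 74, 0 and 2. Leaving out 1 library gave 3 to 5 at 10 µM (5 without AA132 10 µM library 1 or vehicle library 1), 0 to 3 for AA132 against AA147 and 0 to 2 for 30 against 10 µM. Over all genes, the 2 fits with 5 members at 10 µM called 340 and 651 (250 before). For AA132 against AA147, 77 were called with 3 members and 0 with 0 members (12 before). For 30 against 10 µM, 253 were called with 2 members, and 80, 12 and 43 with 0 members (166 before). Without the 6 libraries that stood apart, an alternative added after seeing the data, the counts were 3 for AA147, 3 at 3 µM, 8 at 6 µM, 7 at 10 µM, 4 for AA132 against AA147 and 3 for 30 against 10 µM; over all genes the last 2 were 321 and 962. Without AA132 1 µM library 1 and 3 µM library 3, also added, they were 1 at 3 µM and 3 for AA132 against AA147 (60 and 33 of all genes).

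Among the values counted, those that changed sign when 1 library was left out ranged as follows. HSPA1A+HSPA1B at 1 µM ran from -0.091 to 0.41, and was -0.022 without the 6 libraries and -0.095 without the pair named above. HSPA4L ran from -0.14 to 0.11 (AA147), -0.082 to 0.17 (6 µM), -0.040 to 0.21 (10 µM), -0.022 to 0.23 (15 µM), -0.063 to 0.21 (30 µM) and -0.10 to 0.087 (30 against 10 µM); without the 6 libraries it was -0.17 (AA147), -0.082 (6 µM), -0.057 (10 µM), -0.022 (15 µM) and 0.10 (30 against 10 µM). HSPA4 ran from -0.12 to 0.017 (10 µM) and -0.064 to 0.082 (AA132 against AA147), and was 0.0044 at 10 µM without the 6 libraries. HSPA2 ran from -0.071 to 0.061 (AA132 against AA147; 0.025 without the 6) and -0.023 to 0.0072 (slope; 0.053 without 30 µM). HSPA1L ran from -0.035 to 0.43 (AA147) and -0.011 to 0.46 (AA132 against AA147), HSPA6 from -0.13 to 0.15 (AA147) and HSPA8 from -0.0027 to 0.11 (30 µM). BAG3 for 30 against 10 µM was -0.0087 without the 6 libraries. The library number as a replicate block changed no count: it called 8 in Tg, 3 at 10 µM and 6 at 30 µM. At 35 to 313 counts per library, HSPA6 is the member whose depth limits the precision most.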
